A study of Arabidopsis thaliana with 2 samples.

Results

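Cytosolic translation factors are the soluble proteins that load the ribosome with messenger RNA and initiator tRNA, move it along the message and release the finished chain. The list held 49 Arabidopsis thaliana genes for initiation, elongation and release factors, chosen by locus and by factor class. No measured value entered the rule, though earlier results of these data were known when the list was chosen. Of these 49 genes, 13 had a probe set that the array annotation paired with that gene alone, and these 13 are described here out of 13355 genes with such a probe set. All 13 were measured, which means above a low intensity floor on at least 1 array, and 12 were above it on both. The other 36, among them all listed genes for eIF5A, eIF6 and the release factor eRF1, were not analysed here.

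The samples were mesophyll protoplasts, the photosynthetic cells of the leaf freed from their walls, with no transgene or mutation named in the labels. Cells from leaves of 36 plants were pooled and split into 1 control sample and 1 hypoxia sample, so both arrays share their plants and no array has a replicate. The control cells spent 6 h in 10 ml of mannitol buffer at a depth of 0.6 mm in a dish, and the hypoxia cells spent 6 h in 2 ml at 25 mm in a tube, both under light of 80 microeinstein. The series asked which genes low oxygen induces in these cells. The hypoxia cells also stood at 5 times the density and in another vessel, and these differences cannot be told apart from low oxygen.

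In eukaryotes, eIF3 is the scaffold on the small ribosomal subunit, eIF2 carries the initiator tRNA, and eIF4A is the helicase that unwinds the leader of the message. Start codon selection is set by eIF1 and eIF1A, and by eIF5, which triggers GTP hydrolysis on eIF2. During elongation eEF1A brings each charged tRNA, and eEF1B exchanges its GDP for GTP. Plants short of oxygen are known to cut the energy spent on protein synthesis, in part by withdrawing messages from ribosomes, a step that transcript levels do not show.

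Both arrays had close overall levels, with a median intensity of 345.2 in control and 334.2 in hypoxia. Intensity ratios of 3′ over 5′ control probes for actin, glyceraldehyde phosphate dehydrogenase and ubiquitin ran from 0.823 to 4.96 in control and from 0.974 to 4.48 in hypoxia. On the hypoxia array all 18 hybridisation controls read higher, by a median of 0.50 on the log2 scale. Of 12 mesophyll markers, 5 were measured, all above the floor on both arrays, and their summed intensity was 68376 in control and 121486 in hypoxia. Among markers of other cell types, 2 of 4 for guard cells summed to 327.7 and 503.2, with GC1 under the floor in control, 1 of 4 for phloem, SWEET11, read 212.4 and 1020.2, a log2 ratio of 2.31, and 0 of 4 for epidermis were analysed. The part of these differences in the results was not tested, and in such bulk samples a change in the number of cells of a type cannot be told apart from a change in RNA per cell.

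The translation factors lay on both sides of the control level. Of 13 genes, 2 were at least 2-fold higher in hypoxia, an eIF1 gene and an eEF1B subunit gene, where 13.0% of the 7972 measured genes were. The eEF1B gene was under the floor in control, so it could only come out higher. At least 2-fold lower was 1 gene, for the eIF3d subunit, where 14.5% of measured genes were. The other 10 lay within 2-fold. Below a log2 ratio of 0 were 7 of the 13, beside 52.9% of all measured genes. The median log2 ratio of the 13 genes was -0.14, with quartiles of -0.31 and 0.67, while that of all measured genes was -0.07, with quartiles of -0.66 and 0.51. These shares are near those of all genes. Intensities are printed as deposited. Ratios were taken after bringing both arrays to the same median, which adds 0.05 to the log2 ratio of the printed intensities. With 1 array per group no test was possible. The only error at hand is the SD between log2 ratios of probe sets of the same gene, 0.34 in 74 genes, and it covers neither the cells nor the arrays.

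**Figure D1:**
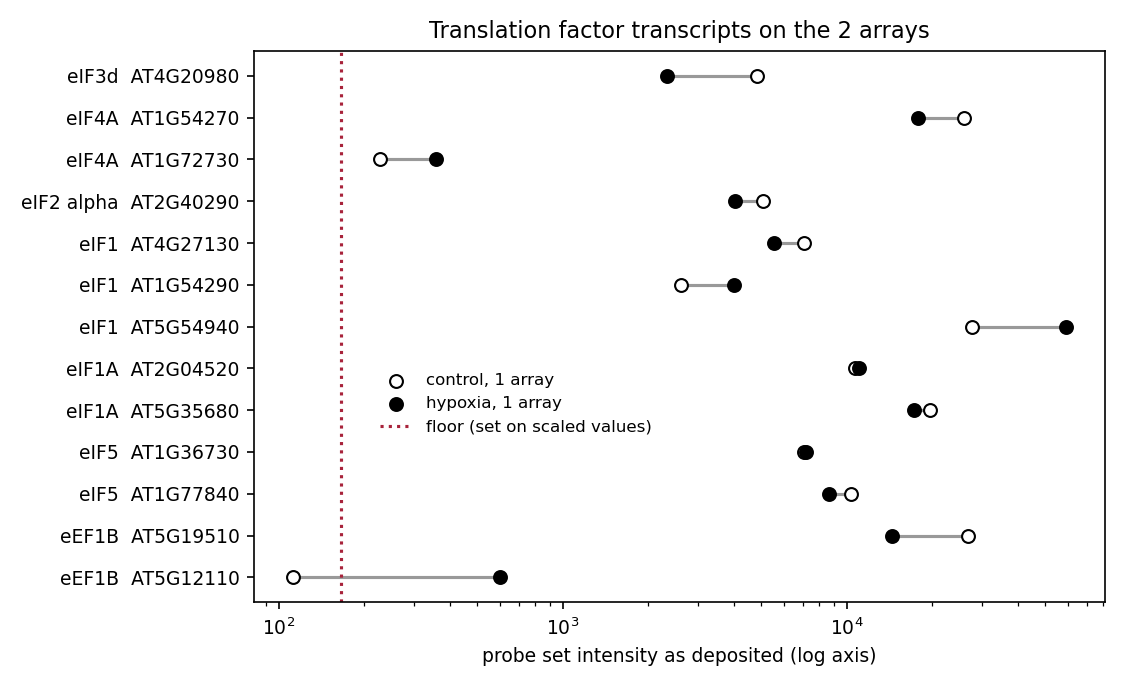
Probe set intensity as deposited, on a log axis, for the 13 translation factor genes, with 1 open point for the control array and 1 filled point for the hypoxia array. The floor of 165.7 is dotted. The eIF1 gene AT5G54940 moves from 27613 to 59271, and only AT5G12110 starts under the floor.

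The eIF3 scaffold was represented by 1 of its 12 listed genes. AT4G20980, which encodes eIF3d, a subunit that in animals can bind the cap of selected messages, read 4839 in control and 2327 in hypoxia. The log2 ratio was -1.01 ± 0.34 (probe set SD), a 2.01-fold lower level. It lay at percentile 14.2 of all measured genes, just past the 2-fold limit, and it came within 2-fold with quantile normalization, at -0.99, and loess, at -0.95. With the arrays centred on reference genes it was -0.40, still below 0. That centring rests on 3 measured genes, SAND at -0.91, TIP41 at -0.61 and UBC21 at -0.03, so their median is the value of TIP41 alone. Other eIF3 subunit genes came from a wider list of translation genes. Of these, AT5G15610 and AT3G02200, both for eIF3m, had log2 ratios of -1.003 and -0.58, and AT1G66070, for the loosely bound eIF3j, had -0.37. All 4 measured eIF3 genes had ratios below 0, beside 52.9% of all measured genes, though only 2 of the 4 did with reference gene centring. All 4 lay below the median of all genes under each of 6 scalings. Only quantile normalization and loess could readily change that position, as the others shift all genes nearly alike.

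Of 10 listed genes for cap binding and unwinding, 2 were analysed, both for the eIF4A helicase. Their ratios had opposite signs, except with reference gene centring, where both were above 0. EIF4A-2 (AT1G54270) read 25812 in control and 17833 in hypoxia, with a log2 ratio of -0.49. AT1G72730 read 227.1 in control and 358.2 in hypoxia, and its ratio was 0.70. The difference between the 2 ratios was 1.19, against a probe set SD of 0.49 for such a difference, and it ran from 1.19 to 1.41 over the 5 other scalings. AT1G72730 lay close to the floor on both arrays and was under a floor set at the 60th percentile, so its ratio rests on low signal. Another listed eIF4A gene, the cap-binding proteins, the scaffold eIF4G and eIF4B were not analysed here.

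The eIF2 complex was represented by 1 of 4 genes. AT2G40290 encodes its alpha subunit, the one that the kinase GCN2 phosphorylates to slow initiation. Its control level was 5062 and its hypoxia level 4024. The ratio of -0.28 is smaller than the probe set SD.

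Start codon selection had the best coverage, 7 of 8 listed genes, and a median log2 ratio of 0.07. Within it the eIF1 ratios ran from -0.31 to 1.15, while the eIF1A and eIF5 ratios stayed close to 0 in the main setting. The quartiles of all measured genes were -0.66 and 0.51. The eIF1 protein sits near the P site and holds the scanning ribosome back from poor start codons. AT5G54940, an eIF1 gene, had a control intensity of 27613 and a hypoxia intensity of 59271. Its log2 ratio of 1.15, or 2.22-fold, was the highest of the 12 factors above the floor on both arrays, at percentile 89.4 of measured genes. AT1G54290, also for eIF1, read 2600 in control and 3998 in hypoxia, which is a ratio of 0.67. AT4G27130, the last of the eIF1 genes analysed, read 7079 in control and 5538 in hypoxia, a ratio of -0.31. Another listed eIF1 gene was not analysed. The eIF1 genes thus differed among themselves: AT5G54940 exceeded AT4G27130 by 1.46 on the log2 scale and AT1G54290 exceeded it by 0.97, both beyond the SD of 0.49, while AT5G54940 and AT1G54290 differed by 0.48, within it. The first of these differences was between 1.16 and 1.46 over the 5 other scalings. AT5G54940 itself came within 2-fold with quantile normalization, at 0.78, loess, at 0.87, and hybridisation control centring, at 0.65, and stayed above 0 throughout.

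The eIF1A genes, whose product binds the A site beside eIF1, had ratios close to 0. AT2G04520 read 10695 in control and 11061 in hypoxia, with a ratio of 0.10, and AT5G35680 read 19650 and 17206, with a ratio of -0.14. For eIF5, AT1G36730 read 7054 in control and 7189 in hypoxia, a ratio of 0.07, and AT1G77840 read 10381 and 8657, a ratio of -0.22. In the main setting none of these 4 ratios exceeded the probe set SD, but all 4 did with either centring, upward with reference genes, at 0.39 to 0.70, and downward with hybridisation controls, at -0.72 to -0.41. Neither pair differed by more than the SD of a difference, at 0.24 and 0.29.

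Elongation was represented by 2 of 8 genes, both for nucleotide exchange subunits of eEF1B, and their ratios had opposite signs. The sign of AT5G12110 was fixed in advance, since a gene under the floor in control alone could only come out higher. AT5G19510 read 26791 in control and 14492 in hypoxia, 1.79-fold lower, with a log2 ratio of -0.84. It remained below 0 under each of the 5 other scalings, between -1.34 and -0.23. With quantile normalization it was -1.05 and the factor counted as at least 2-fold lower, in place of the eIF3d gene. AT5G12110 read 111.9 in control, under the floor, and 601.9 in hypoxia, so it was at least 3.69-fold higher, a log2 ratio of at least 1.88. That bound depends on the floor: a floor at the 20th percentile gave 2.47, and both values were under a floor at the 60th percentile. The listed eEF1A gene was covered only by a shared probe set, and the listed eEF2 gene was not analysed.

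**Figure D2:**
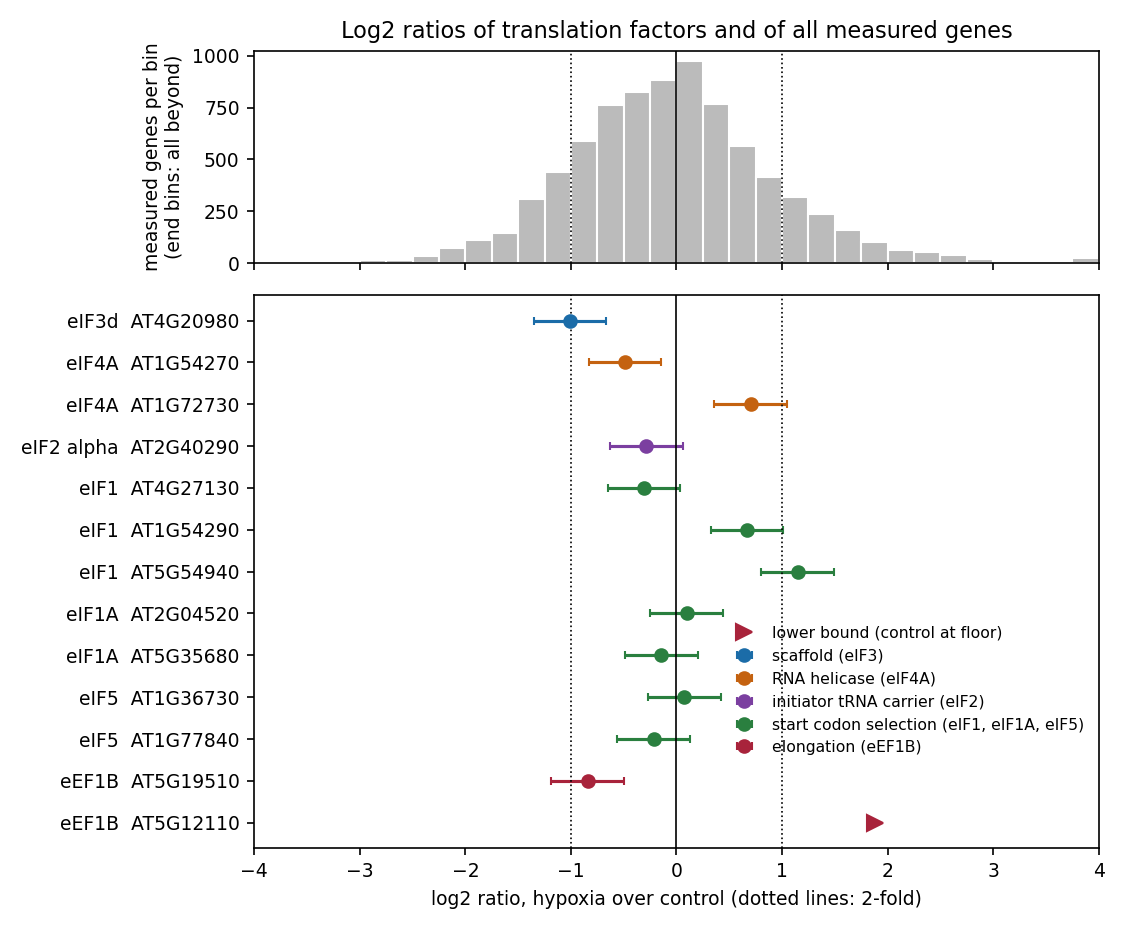
Log2 ratio of hypoxia over control for the 13 genes, by factor class, with bars of 1 probe set SD (0.34) and an arrowhead for the lower bound of AT5G12110. The grey histogram above counts all 7972 measured genes by ratio, with the dotted lines at 2-fold. The eIF1 and eIF4A genes each fall on both sides of 0, which did not hold with reference gene centring. The eEF1B genes also do, but AT5G12110, under the floor in control, could only come out higher.

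Across families, 6 pairs of genes for the same factor, all above the floor on both arrays, could be compared. Of these, 3 differed by more than the probe set SD of a difference, 1 in eIF4A and 2 in eIF1, beside 70.6% of all possible pairs among genes with signal over the floor in both samples. The share among genes for the same factor was thus not above that of all pairs. Differences between genes on the same arrays are the same under any scaling that shifts all values together, apart from genes at the floor, whereas the direction of a single small ratio is not. All 13 genes stood on 1 probe set each, of the type designed for a single transcript, and whether these probes also bind transcripts of related genes was not tested. EIF4A-2 and the eIF1 gene AT1G54290 are close neighbours, with 1 protein-coding gene between them in the RefSeq order, and their ratios had opposite signs, -0.49 and 0.67, except with reference gene centring, where both were above 0.

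Direction held under all 6 scalings for 5 of the 12 genes above the floor on both arrays, beside 53.7% of all such genes. AT5G12110, under the floor in control, could only come out higher and is left out of this count. Higher throughout were 3, the eIF1 genes AT5G54940 and AT1G54290 and the eIF4A gene AT1G72730. Lower throughout were 2, AT4G20980 for eIF3d and AT5G19510 for eEF1B. The other 7 changed sign with the scaling: EIF4A-2 ran from -0.99 to 0.12, AT2G40290 from -0.79 to 0.32 and AT4G27130 from -0.81 to 0.30. The centrings shift all genes: the median over every measured gene moved by 0.47 with reference genes and by -0.48 with hybridisation controls.

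**Figure D3:**
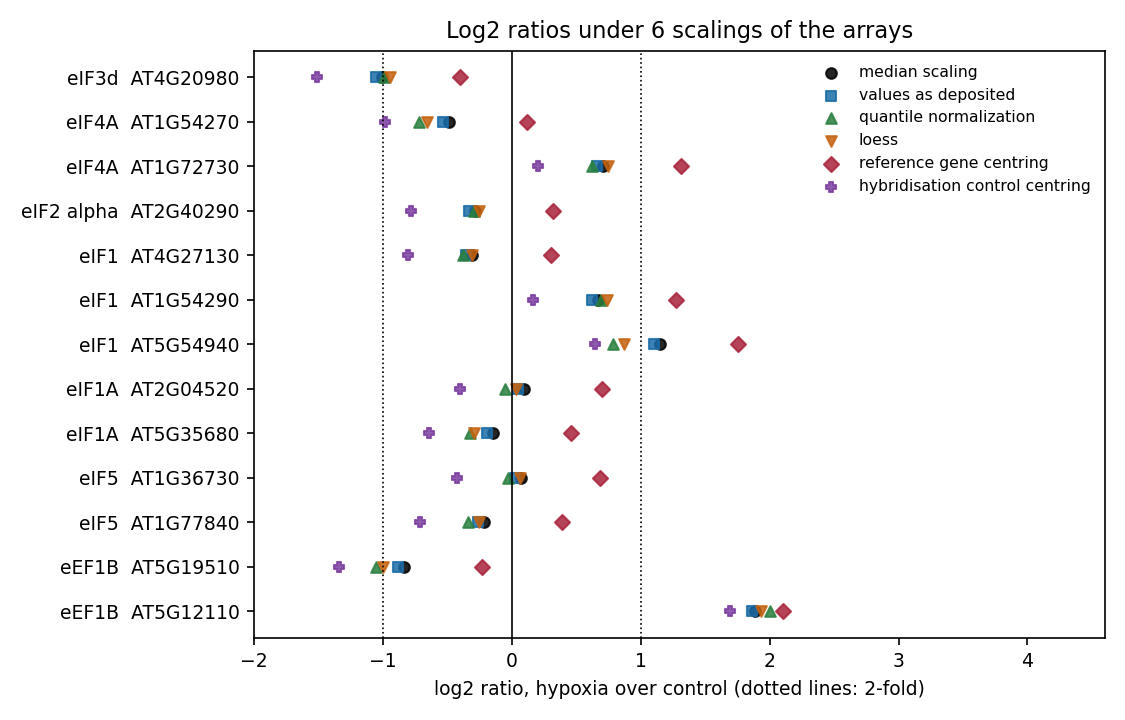
Log2 ratio of hypoxia over control for the 13 genes under 6 scalings of the arrays, 1 symbol per scaling, with the dotted lines at 2-fold. Reference gene centring gives the highest and hybridisation control centring the lowest ratio of each gene, and 5 of the 12 genes above the floor on both arrays stay on 1 side of 0.

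Other genes of cytosolic translation had mostly lower levels in hypoxia in the main setting. Together, 5 lists held 57 further genes, of which 21 had a single-gene probe set and 18 were measured. At least 2-fold lower were 3 of the 18, beside 14.5% of all measured genes, and at least 2-fold higher were 0, beside 13.0%, and 14 of the 18 were below 0, beside 52.9% of all measured genes. With reference gene centring 7 of the 18 were below 0, 1 was at least 2-fold lower and 1 at least 2-fold higher. With hybridisation control centring, where the median of all measured genes was -0.55, 17 were below 0 and 9 at least 2-fold lower. Quantile normalization and loess each left 1 at least 2-fold lower. In the main setting 14 of the 18 lay below the median of all genes. That count was 13 with quantile normalization and 14 with loess, and reference gene centring, which shifts all genes together, could hardly change it. The median log2 ratio of the 18 was -0.47, or 0.14 with that centring. AT1G73180, for eIF2A, a protein that can bring initiator tRNA to the ribosome without eIF2 in animals and yeast, read 2274 in control and 507.2 in hypoxia. That is a log2 ratio of -2.12, or 4.34-fold lower, and it was at least 2-fold lower under each of the 5 other scalings, with -1.51 as the smallest. ILA (AT1G64790), the Arabidopsis GCN1 that activates the kinase GCN2, read 2345 and 1098, a ratio of -1.05. The eIF3m gene AT5G15610 was the third, and this one and ILA were less than 2-fold lower after loess or quantile normalization and with reference gene centring.

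The measured eIF2B genes were all lower, except that 2 of 5 were above 0 with reference gene centring. The eIF2B complex recharges eIF2 with GTP after each round of initiation. Of 11 listed genes 5 were measured, and all 5 had ratios below 0, with a median of -0.64, beside 52.9% of all measured genes below 0. In the main setting 0 were at least 2-fold lower, beside 14.5% of all measured genes. That count was 1 on the values as deposited and 3 with hybridisation control centring, where the median of all measured genes was -0.55. Probe sets shared by 2 alpha and by 2 delta subunit genes, at -1.69 and -0.15, are not among the 5. AT2G34970 and AT4G18300, for the catalytic epsilon subunit, had -0.96 and -0.71, AT3G07300, for beta, had -0.64, AT1G48970, for delta, had -0.34 and AT1G72340, for alpha, had -0.23. The 5 genes stayed below the median of all genes under each of 6 scalings. Only quantile normalization and loess could readily change that, as the others shift all genes nearly alike. Among the rest, the eIF5B genes, whose product joins the ribosomal subunits, had AT1G21160 at 0.67 and AT1G76810 at -0.56, though both were above 0 with reference gene centring. AT1G71350, for eIF2D, had -0.78, RAPTOR1, a partner of the TOR kinase, had 0.33, and AT1G18070, for the release factor eRF3, had 0.15. The ribosome rescue genes PEL1 and AT5G10630 both had -0.21, and the signs of these 2 and of RAPTOR1 and eRF3 changed between scalings. The poly(A)-binding proteins had 0 genes with a single-gene probe set among 8 listed.

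**Figure D4:**
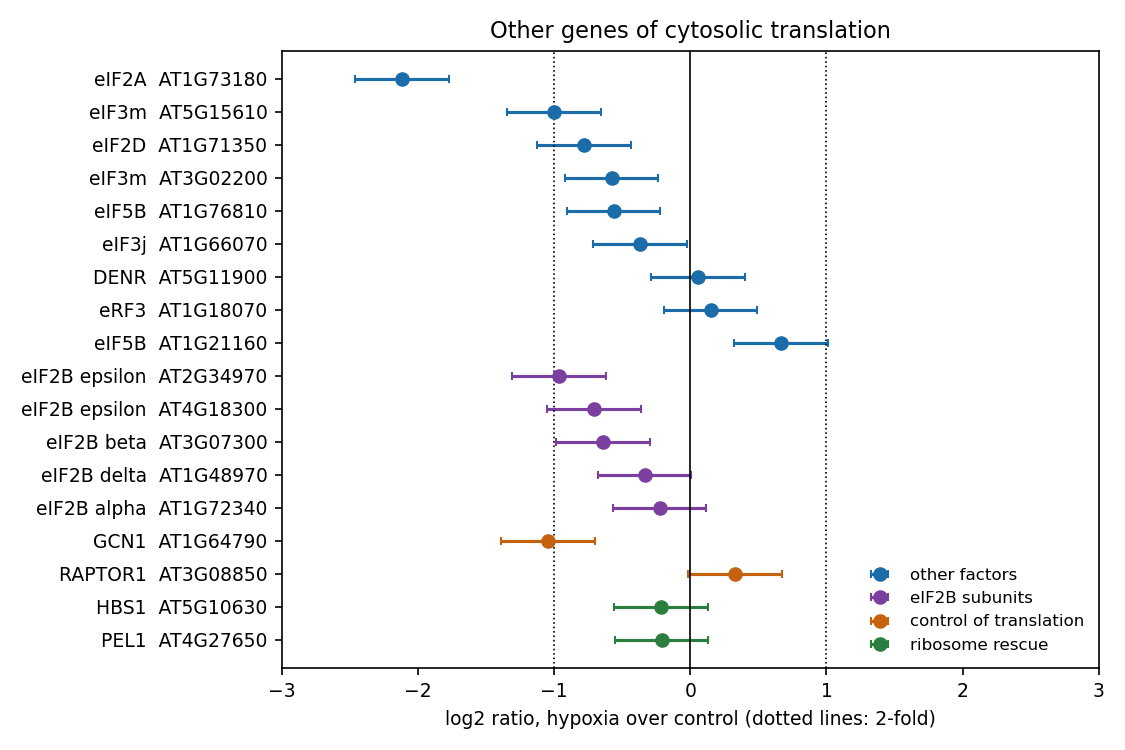
Log2 ratio of hypoxia over control for the 18 other measured genes of cytosolic translation, by list, with bars of 1 probe set SD (0.34) and the dotted lines at 2-fold. AT1G73180 lies lowest at -2.12, and all 5 eIF2B genes lie left of 0 in the main scaling, beside 52.9% of all measured genes. With reference gene centring 3 of the 5 did.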

How the data were processed

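The deposited values were probe set intensities of 1 array per sample on a linear scale, made with GCOS 1.0 per the submitters' processing notes. The software settings and any genome build are not given in the sources used here. Both columns have the same mean after trimming 2% at each end, so the authors had applied a global scaling. Factor names of loci come from general knowledge of these gene families. An older platform annotation paired 13513 probe sets with 1 gene, 503 with several and 8730 of the rest with none, and RefSeq identifiers (TAIR10.1) matched 13436 of the 13513.

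Leaving out the 64 control probe sets, the arrays were brought to a common median, the geometric mean of the original medians. Values under the 40th percentile of the pooled values, an intensity of 165.7, were set to it. The brightest probe set stood for a gene. Ratios are hypoxia over control on the log2 scale. They were computed with pandas 2.3.3 and checked on simulated arrays. Genes named by rule were all members, and of the other lists those past 2-fold and otherwise up to 4 with the largest ratios. Further genes of those lists were named with their values in view. Members and lists were chosen with earlier results of these data known. Comparison lists of ribosomal proteins and tRNA synthetases, and sequences, were not used here. The 10 alternatives changed the scaling, the floor or the choice of probe sets.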

Additional observations from a re-analysis of the deposited data

How the results depend on the processing

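No paired analysis was possible because each group had 1 array. The median log2 ratio of the 13 factors was -0.14 in the main setting. It was -0.29 with quantile normalization and -0.26 with loess, and it moved to 0.46 with reference gene centring and -0.65 with hybridisation control centring. The count of factors at least 2-fold higher, 2 in the main setting, was 1 with quantile normalization, loess, hybridisation control centring and the floor at the 60th percentile, and 4 with reference gene centring. Except with the floor at the 60th percentile, that count includes AT5G12110, which could only come out higher. The count at least 2-fold lower, 1 in the main setting, was 0 with loess and with reference gene centring and 2 with hybridisation control centring. Below 0 were 7 factors in the main setting, 9 with quantile normalization, 9 with hybridisation control centring and 2 with reference gene centring. With reference gene centring the class medians were -0.40 for eIF3, 0.72 for eIF4A, 0.32 for eIF2, 0.68 for start codon selection and 0.94 for elongation, and with hybridisation control centring they were -1.51, -0.79 and -0.43 for eIF3, eIF2 and start codon selection, -0.39 for eIF4A and 0.17 for elongation. Both are shifts of a whole array. Main values of these medians were -1.01, 0.11, -0.28, 0.07 and 0.52. For eIF3 and eIF2 the median is the value of 1 gene, and for eIF4A and elongation it is the midpoint of 2 genes. In elongation these had opposite signs in the main setting, and AT5G12110 could only come out higher. The elongation median was 0.82 with the floor at the 20th percentile. With the floor at the 60th percentile 11 factors were measured, and the classes that lost a dim gene had medians of -0.49 for eIF4A and -0.84 for elongation. Of 128 single values of the 13 genes under alternatives, 101 moved by less than the probe set SD and 27 by more. Many of the 101 could not move. Each gene had 1 gene-specific probe set, so the choice of probe sets changed no value, and the floor acts on dim genes only. Reference gene centring moved 12 of the 13 genes by more than that SD, and hybridisation control centring also moved 12. The eIF5A and release factor classes gave no value. Precision is limited by having 1 array per group, and signal close to the floor limits AT1G72730 and AT5G12110.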

Other observations

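Probe sets that the annotation pairs with several genes of the same factor entered no count or median above, and their values belong to no single gene. The probe set shared by 4 genes for eEF1A read 57739 in control and 57346 in hypoxia, with a log2 ratio of 0.04 after scaling of the arrays and no larger than that scaling itself. The one shared by 2 genes for the gamma subunit of eEF1B read 26365 and 18835, a ratio of -0.44, between the ratios of the other two eEF1B subunit genes. For eIF2B, the probe set shared by 2 alpha subunit genes read 4148 in control and 1246 in hypoxia, a ratio of -1.69, and the one shared by 2 delta subunit genes read 1581 and 1375, a ratio of -0.15.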
